A study of Mus musculus with 16 samples.

Results

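Ribosome footprints of cerebral cortex lacking both Fmr1 and Cpeb1 were compared with footprints of cortex lacking Cpeb1 alone, which asks what the loss of Fmr1 changes where Cpeb1 is already absent. The members were chosen by their titles: 2 footprint libraries of the Fmr1/Cpeb1 double knockout and 2 of the Cpeb1 single knockout, 4 of the 16 libraries of the series. The other libraries are footprints of the Fmr1 single knockout and of wild type, and RNA-seq of the cytoplasmic fraction for all 4 genotypes, with 2 libraries a group. All mice were 28 to 35 days old and belonged to FVB.129P2-Pde6b+ Tyr c-ch/AntJ. Both groups compared carry the Cpeb1 knockout, so the contrast says nothing of Cpeb1 loss itself. Genotypes are given only as knockouts, and the alleles are not described in the sources used here. The labels do not say whether the numbered libraries of a group came from separate mice, so p-values measure only the spread between these libraries, which may be technical.

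FMRP, the product of Fmr1, is an RNA-binding protein that associates with translating ribosomes and is best known for holding back translation of neuronal messages. Its loss underlies fragile X syndrome. CPEB1 binds a short element near the end of messages and controls their poly(A) tail and translation, and it has been studied as a counterweight to FMRP. A footprint is the stretch of message shielded by a ribosome, so the footprint level of a gene follows both the amount of its RNA and how densely ribosomes sit on it.

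CPM here stands for counts on a common library total, adjusted by trimmed mean of M-values (TMM) factors. Such levels are comparable between libraries for 1 gene but not between genes. The 4 libraries held 16239479 to 24526865 counts. A gene was called when edgeR's quasi-likelihood test gave a Benjamini-Hochberg adjusted p under 0.05 with the replicate number as a block. A change is the log2 of double knockout over Cpeb1 knockout, with its SE, for 2 libraries against 2. The SE is the size of the change divided by the square root of the test's F. Its spread is estimated over all libraries of the fit and moderated across genes, so it is not the spread of those 4 libraries alone.

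The genotypes showed in both targeted genes. Fmr1 (chromosome X, 68678536 to 68717963, GRCm38) had 5.33 and 5.52 CPM in the double knockout libraries and 108 and 94.8 CPM in the Cpeb1 knockout libraries. Wild type libraries had 95.7 and 97.3 CPM of Fmr1, and Fmr1 single knockout libraries 8.69 and 5.87 CPM. The Fmr1 change was -4.23 ± 0.14 (edgeR quasi-likelihood test, adjusted p = 4.82e-09). Cpeb1 (chromosome 7, 81347026 to 81458001) had 7.73 and 7.69 CPM in the double knockout and 7.30 and 7.43 CPM in the Cpeb1 knockout, against 33.4 to 36.7 CPM in the 4 libraries with an intact Cpeb1 gene. Cpeb1 footprints were therefore reduced but not at 0 in both groups, with a change between them of 0.07 ± 0.12 (edgeR adjusted p = 0.79).

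Outside Fmr1, 771 genes differed, mostly by modest amounts and in both directions. In all, 772 of 13774 genes tested were called (5.6%), 413 higher (3%) and 359 lower (2.61%) in the double knockout. The median size of the called changes was 0.43 on the log2 scale, the smallest 0.23, and 16 called genes exceeded 1. The median change over all genes tested was -0.01. In 771 of the 772 the direction was the same in both same-numbered pairs of libraries, against 68.2% of all genes tested, which is partly fixed by the call. The exception was Gh, the growth hormone gene of the pituitary, which had 486 counts in 1 double knockout library, 0 in the other, and 13 and 1 in the Cpeb1 knockout libraries. Calls followed depth: 5 higher and 8 lower among the 2759 genes with the fewest counts, 158 and 157 among the 2755 with the most.

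How many genes were called depended on the model and on every library. Without the replicate block 207 genes were called (111 higher, 96 lower). Leaving out 1 library at a time left 81 calls without double knockout replicate 1, 10 without double knockout replicate 2, 5 without Cpeb1 knockout replicate 1 and 18 without Cpeb1 knockout replicate 2. At least 771 of the 772 genes kept their direction in each of these fits. The fits reuse the libraries that made the calls, so a kept direction is largely fixed by the selection and is no check. For the groups described next, the number of members called without the block is given in parentheses after the count. The share of a group called is read beside 5.6% of all genes and 11.4% (315) of the 2755 genes with the most counts.

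**Figure D1:**
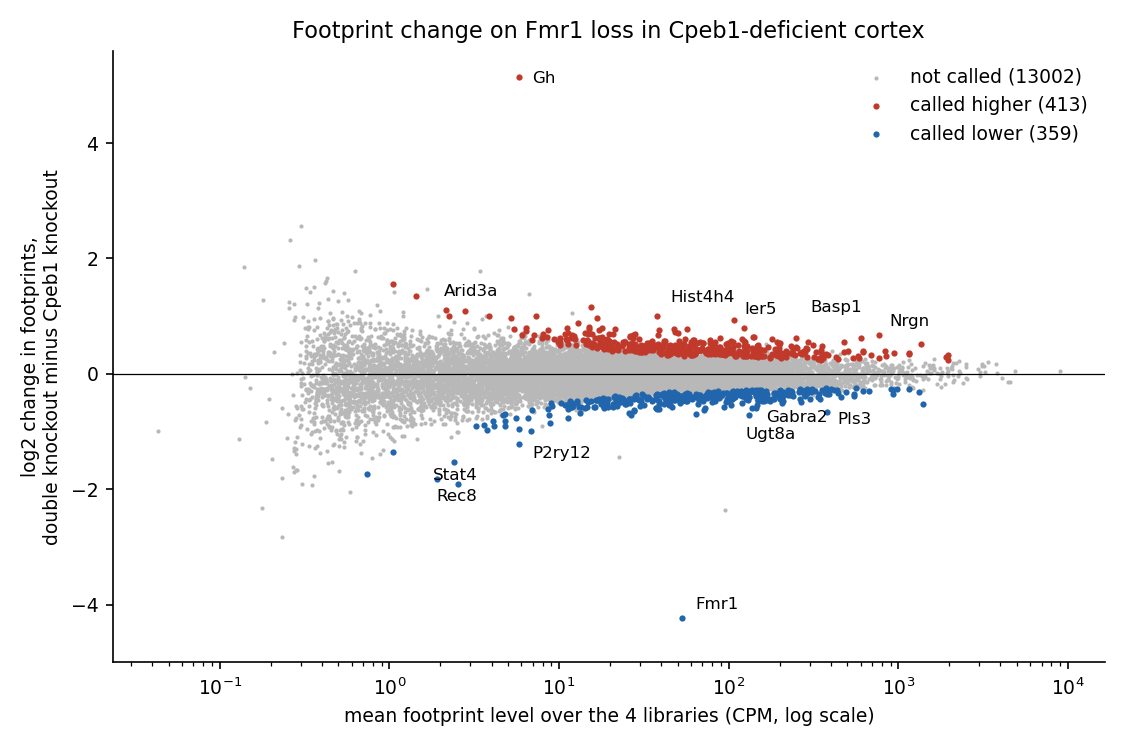
Change in footprints (log2, double knockout minus Cpeb1 knockout) against the mean footprint level over the 4 libraries (CPM, log axis), 1 point per gene tested. The 413 genes called higher are red and the 359 called lower blue; Fmr1, at -4.23, lies far below all others, and Gh, at the top, rests on 1 library.

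Of the relatives of the targeted genes, only Fxr2 was called. Fxr2 encodes a close homologue of FMRP that binds ribosomes too. It had 134 and 130 CPM in the double knockout and 107 and 99.0 CPM in the Cpeb1 knockout, and the groups did not overlap. Wild type and Fmr1 knockout libraries lay between them, at 108 to 122 CPM. The Fxr2 change was 0.36 ± 0.08 (edgeR adjusted p = 0.024, and 0.052 without the block). The changes of Fxr1, Cpeb2, Cpeb3 and Cpeb4 were 0.01, 0.11, 0.03 and -0.20, with edgeR adjusted p-values of 0.13 to 0.95.

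Immediate-early genes, which neurons switch on quickly after activity, had the highest median of the 28 gene groups. Of 28 tested, 5 rose (1 without the block) and none fell, 17.9% called, and 15 were among the genes with the most counts. The median was 0.23 in footprints and -0.02 in RNA, and 0.15 in footprints of the Fmr1 knockout against wild type. The summed RNA level varied between libraries, at 1934 and 1338 CPM in the double knockout and 1516 and 1798 CPM in the Cpeb1 knockout. Ier5, a member of the stress and growth-factor induced early genes, had 136 and 147 CPM in the double knockout and 70.2 and 79.0 CPM in the Cpeb1 knockout. Its 4 remaining footprint libraries stood at 66.1 to 79.0 CPM, so both double knockout libraries were set apart from all others. The Ier5 change was 0.93 ± 0.09 (edgeR adjusted p = 0.00086), and its RNA change 0.03. Junb, a subunit of the AP-1 transcription factor, had 217 and 260 CPM in the double knockout and 156 and 171 CPM in the Cpeb1 knockout. Its change was 0.54 ± 0.09 (edgeR adjusted p = 0.011, and 0.082 without the block). Egr4 and Ier2, both early-response genes, rose by 0.55 and 0.52, and neither was called without the block. Arc, which acts in the removal of AMPA receptors from synapses, had 390 and 410 CPM in the double knockout and 270 and 338 CPM in the Cpeb1 knockout. Arc stood at 160 to 249 CPM in wild type and Fmr1 knockout libraries, below every library that lacks Cpeb1. Fos had a change of 0.37, Egr1 of 0.15 and Npas4 of 0.03, none of them called.

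Few postsynaptic genes were called, all of them higher. Among 32 postsynaptic scaffold and kinase genes 4 rose (2 without the block), none fell, and the median was 0.18. The 12.5% called was near the 11.4% of the genes with the most counts, the class that held 25 of the 32. Nrgn encodes neurogranin, a calmodulin-binding protein of dendrites. It had 888 and 996 CPM in the double knockout and 514 and 670 CPM in the Cpeb1 knockout, a change of 0.68 ± 0.09 (edgeR adjusted p = 0.0045). The highest Nrgn level outside the double knockout was 703 CPM, in a wild type library. Calm3, a calmodulin gene, rose by 0.37, and Iqsec2, an exchange factor of the postsynaptic density, by 0.40. The next 3 genes belong to no list and were among the smallest p-values upward. Basp1, a membrane protein of growth cones and nerve endings, had 679 and 785 CPM in the double knockout and 421 and 539 CPM in the Cpeb1 knockout (change 0.61 ± 0.07, edgeR adjusted p = 0.0025). Ctxn1, which encodes the cortex-enriched membrane protein cortexin, rose by 0.71, and Ttc9b, a tetratricopeptide repeat gene of the brain, by 0.61.

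Presynaptic and cytoskeletal lists held calls in both directions. Of 42 presynaptic vesicle and release genes 5 rose and 1 fell (1 without the block), 14.3% called, with a median of 0.04, and 34 of the 42 were among the genes with the most counts. The complexin Cplx1, a clamp and promoter of vesicle fusion, rose by 0.39, and Sncb, which encodes beta-synuclein, by 0.30. Bsn, the active-zone scaffold bassoon, rose by 0.34 in footprints and had an RNA change of 0.62. Among 37 genes of microtubule-associated proteins, spectrins and ankyrins 6 rose and 2 fell (3 without the block), 21.6% called, with a median of 0.09. Of the 37, 32 were among the genes with the most counts. Stmn1, a tubulin-sequestering stathmin, had 1458 and 1742 CPM in the double knockout and 1142 and 1090 CPM in the Cpeb1 knockout, a change of 0.52 ± 0.08 (edgeR adjusted p = 0.011). Its RNA change was -0.16. Stmn3, Map1s and Sptbn4 rose by 0.36, 0.50 and 0.44. No tubulin or actin gene was called of 19 (7 with an unadjusted p under 0.05 by edgeR, none called by DESeq2). Of 30 kinesin and dynein genes 2 rose, Dctn1 (0.39) and Klc2 (0.38), and 1 fell, Dynll2 (-0.35) (1 without the block, Dctn1). The 10% called was near the 11.4% of the genes with the most counts, the class that held 25 of the 30.

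Regulators of chromatin and of RNA were also mixed. Of 65 chromatin regulators 6 rose and 2 fell (1 without the block), 12.3% called, with a median of 0.10. Of the 65, 35 were among the genes with the most counts. Setd1b, a histone H3 lysine methyltransferase, rose by 0.48 and Ehmt2, another histone methyltransferase, by 0.34. The deacetylase Hdac2 fell by 0.31 and the remodelling ATPase Smarca5 by 0.36. Among 51 neuronal RNA-binding and splicing genes 6 rose and 1 fell (2 without the block), 13.7% called, with a median of 0.05. Of the 51, 39 were among the genes with the most counts. Nova2, a splicing regulator of neurons, rose by 0.49 and Srrm3, which promotes neuronal microexons, by 0.48.

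Genes on a list of FMRP-bound messages were called in both directions. Membership was taken as listed, and binding was not tested here. Of 202 such genes 11 rose and 9 fell (6 without the block), 9.90% together, and the median was 0.03 in footprints against 0.20 in RNA. Of the 202, 157 were among the 2755 genes with the most counts. By edgeR 77 of the 202 had an unadjusted p under 0.05, 38.1% against 24.6% of all genes. Ttbk1, a tau kinase, had 46.7 and 51.5 CPM in the double knockout and 31.7 and 36.4 CPM in the Cpeb1 knockout. Its change was 0.53 ± 0.09 (edgeR adjusted p = 0.013), and its RNA change 0.84. Wnk2, a kinase that regulates chloride transport, rose by 0.44. Herc1, a very large ubiquitin ligase, had 290 and 292 CPM in the double knockout and 367 and 405 CPM in the Cpeb1 knockout and fell by 0.41 ± 0.07 (edgeR adjusted p = 0.016).

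**Figure D2:**
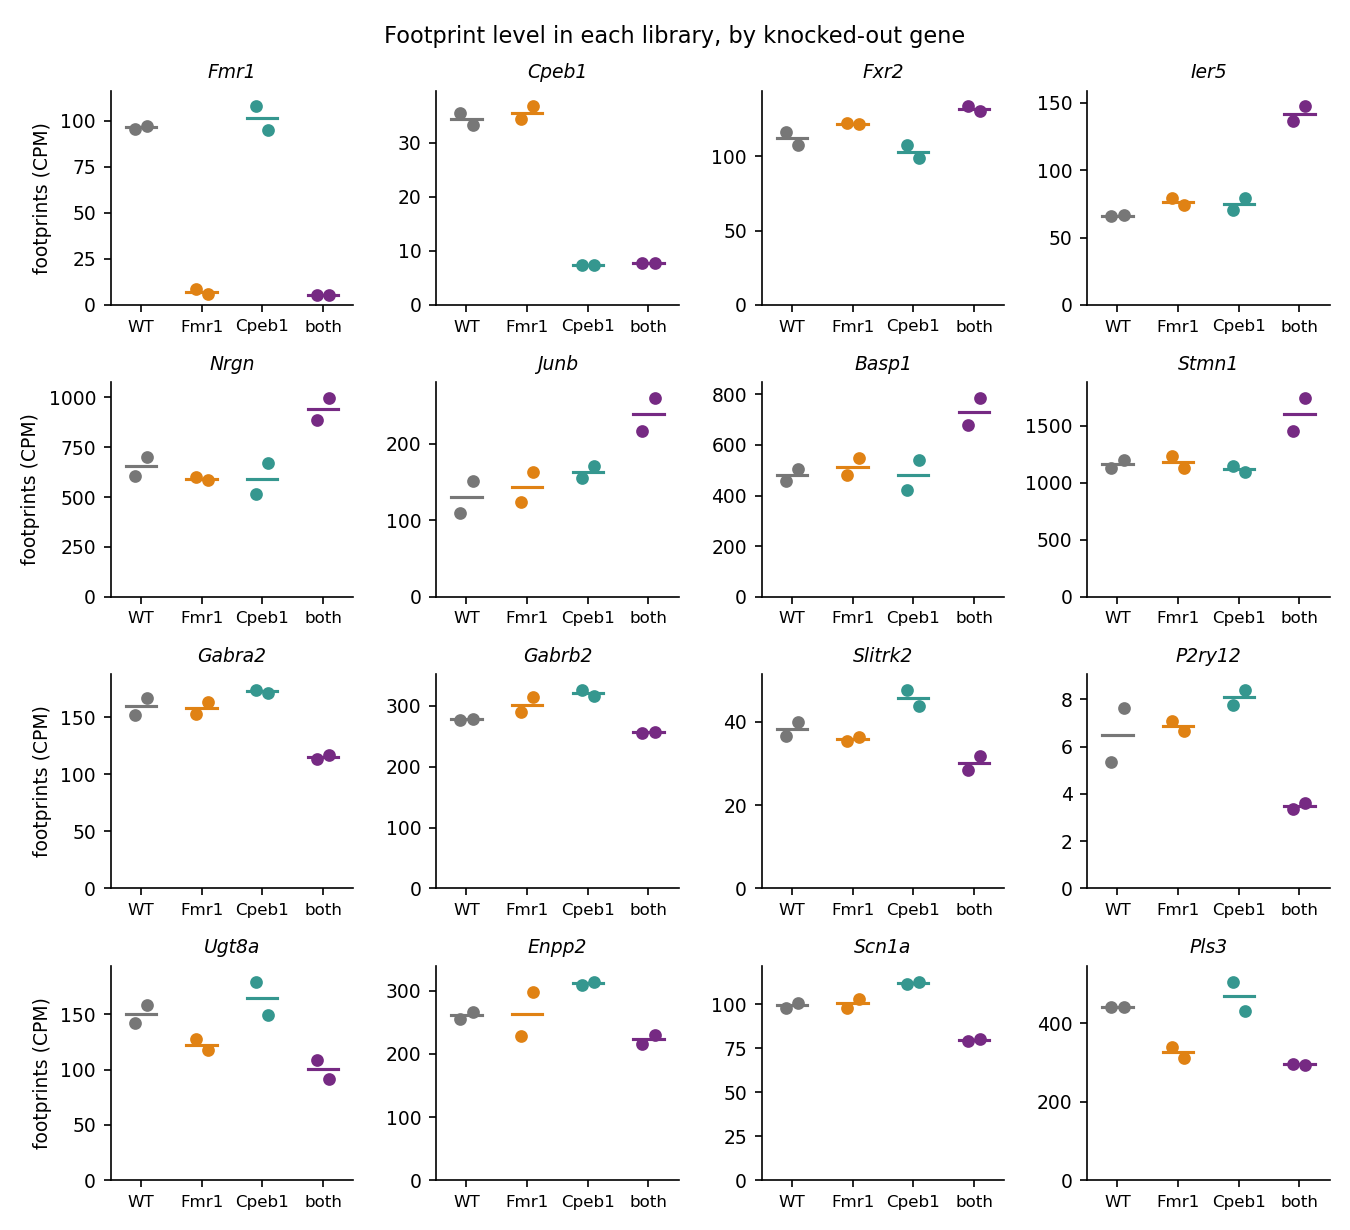
Footprint level (CPM, from 0) of 16 genes in each of the 8 footprint libraries: wild type (WT), Fmr1 knockout, Cpeb1 knockout and the knockout of both, points for libraries and a bar for the mean of 2. Ier5 and Nrgn are highest, and Gabra2 and P2ry12 lowest, in both double knockout libraries, while Pls3 and Ugt8a are low in both groups that lack Fmr1.

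GABA receptor genes had the lowest median of the 28 gene groups. Of 16 genes tested, 15 had a change below 0, 5 fell and none rose (4 without the block), 31.3% called, and 11 of the 16 were among the genes with the most counts. The median was -0.29, and between -0.34 and -0.25 in the 12 other fits of this comparison. Those fits reuse the same libraries, so the range is no independent check. Gabra2, the alpha-2 subunit of the synaptic GABA-A receptor, had 114 and 117 CPM in the double knockout and 174 and 172 CPM in the Cpeb1 knockout. Wild type and Fmr1 knockout libraries had 152 to 167 CPM of Gabra2, above both double knockout libraries. Its change was -0.58 ± 0.08 (edgeR adjusted p = 0.0050), and its RNA change -0.21 (edgeR adjusted p = 0.40).

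Other called GABA-A subunits included Gabrb2 and Gabrg1, a beta and a gamma subunit. Gabrb2 had 256 and 257 CPM in the double knockout and 326 and 316 CPM in the Cpeb1 knockout, and the groups did not overlap. Its change was -0.32 ± 0.07 (edgeR adjusted p = 0.024). Gabrg1 fell by 0.44. The metabotropic GABA-B subunits Gabbr1 and Gabbr2 had changes of -0.03 and -0.18, and the inhibitory scaffold Gphn one of -0.04, none called.

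Glutamate receptors and adhesion molecules of the synapse leaned the same way. Of 24 glutamate receptor genes 21 had a change below 0, with a median of -0.19, and 12.5% were called. Of the 24, 8 were among the genes with the most counts. Only Gria3 (-0.30), Grik2 (-0.33) and Grin2a (-0.33), subunits of the AMPA, kainate and NMDA types, fell, and none of them was called without the block. Of 35 synaptic adhesion genes 29 had a change below 0, 10 fell and none rose (3 without the block), 28.6% called, with a median of -0.24, and 17 of the 35 were among the genes with the most counts. Slitrk2, a leucine-rich repeat protein that organizes synapses, had 28.5 and 31.7 CPM in the double knockout and 47.6 and 43.8 CPM in the Cpeb1 knockout (change -0.61 ± 0.10, edgeR adjusted p = 0.011). Flrt3, a partner of latrophilins, had 31.7 and 30.2 CPM against 49.8 and 44.6 CPM (change -0.61 ± 0.10, edgeR adjusted p = 0.011). Slitrk4 fell by 0.46 and the receptor phosphatase gene Ptprd by 0.39, the second not called without the block. Omg, a glycoprotein of myelin and neurons that limits neurite growth, fell by 0.59 ± 0.08 (edgeR adjusted p = 0.0056).

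Among ion channels the called members were mostly lower. Of 47 potassium and HCN channel genes 6 fell and none rose (3 without the block), 12.8% called, with a median of -0.04. Of the 47, 10 were among the genes with the most counts. The called genes included Dpp10 (-0.44), a partner of Kv4 channels, and Kcnh7, Kcnt2 and Kcnh5 (-0.36, -0.41 and -0.40). Of 26 sodium and calcium channel genes 2 fell and 1 rose (2 without the block), with a median of -0.12. The 11.5% called was near the 11.4% of the genes with the most counts, the class that held 14 of the 26. Scn1a, the Nav1.1 channel gene, had 79.0 and 80.4 CPM in the double knockout and 111 and 113 CPM in the Cpeb1 knockout, with 97.7 to 103 CPM in the 4 other footprint libraries. Its change was -0.49 ± 0.08 (edgeR adjusted p = 0.011). Cacna2d1, an auxiliary calcium channel subunit, fell by 0.33, while the beta subunit gene Cacnb1 rose by 0.37.

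Ubiquitin ligases fell in 6 of 33 tested (1 without the block), 18.2% called, and none rose, with a median of -0.12. Of the 33, 24 were among the genes with the most counts. Besides Herc1 the called ligases included Wwp1 (-0.45) and the cullin scaffolds Cul5 (-0.35) and Cul3 (-0.32). In the mTOR pathway 2 of 40 genes rose, Pik3r2 (0.47) and Akt1s1 (0.54), and 2 fell, including the GTPase Rheb (-0.37). That was 10% called (1 gene without the block, Pik3r2), with a median of -0.01. Of the 40, 13 were among the genes with the most counts. Msmo1 (-0.42) and Sc5d (-0.58), enzymes of late cholesterol synthesis, fell, 2 of 25 tested (1 without the block, Sc5d). That was 8% called, and 7 of the 25 were among the genes with the most counts.

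Few genes of the translation machinery were called. Of 81 cytosolic ribosomal protein genes 2 rose (none without the block), Rps26 (0.58) and Rpl14 (0.34), and none fell, 2.47% called. The median was -0.003 in footprints and -0.25 in RNA, and the first changed sign in 8 of the 12 other fits. Among 56 initiation and elongation factor genes Eef1d (0.39) rose and Eif3e (-0.34) fell (1 without the block, Eef1d), 3.57% called, with a median of 0.03. DESeq2 called 4 of them, and 21 had an unadjusted p under 0.05 by edgeR, 37.5% against 24.6% of all genes. No aminoacyl-tRNA synthetase (22 tested), proteasome subunit (32) or deadenylation and decay gene (50) was called. Of these groups, 4, 8 and 10 genes had an unadjusted p under 0.05 by edgeR, and DESeq2 called 0, 1 and 0. Of 77 oxidative phosphorylation genes 3 rose, including Cox7c (0.78), and 2 fell, including Cox7b (-0.47) (2 without the block). That was 6.49% called, with a median of 0.03, and 60 of the 77 were among the genes with the most counts. Mitochondrial ribosomal proteins rose in 3 of 77 (none without the block, and 17 with an unadjusted p under 0.05 by edgeR). That was 3.90% called, with a median of 0.07, and 1 of the 77 was among the genes with the most counts. Rps26, Rpl14 and Cox7c have processed copies elsewhere in the genome, so the authors' counting could split their reads and their changes are uncertain.

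**Figure D3:**
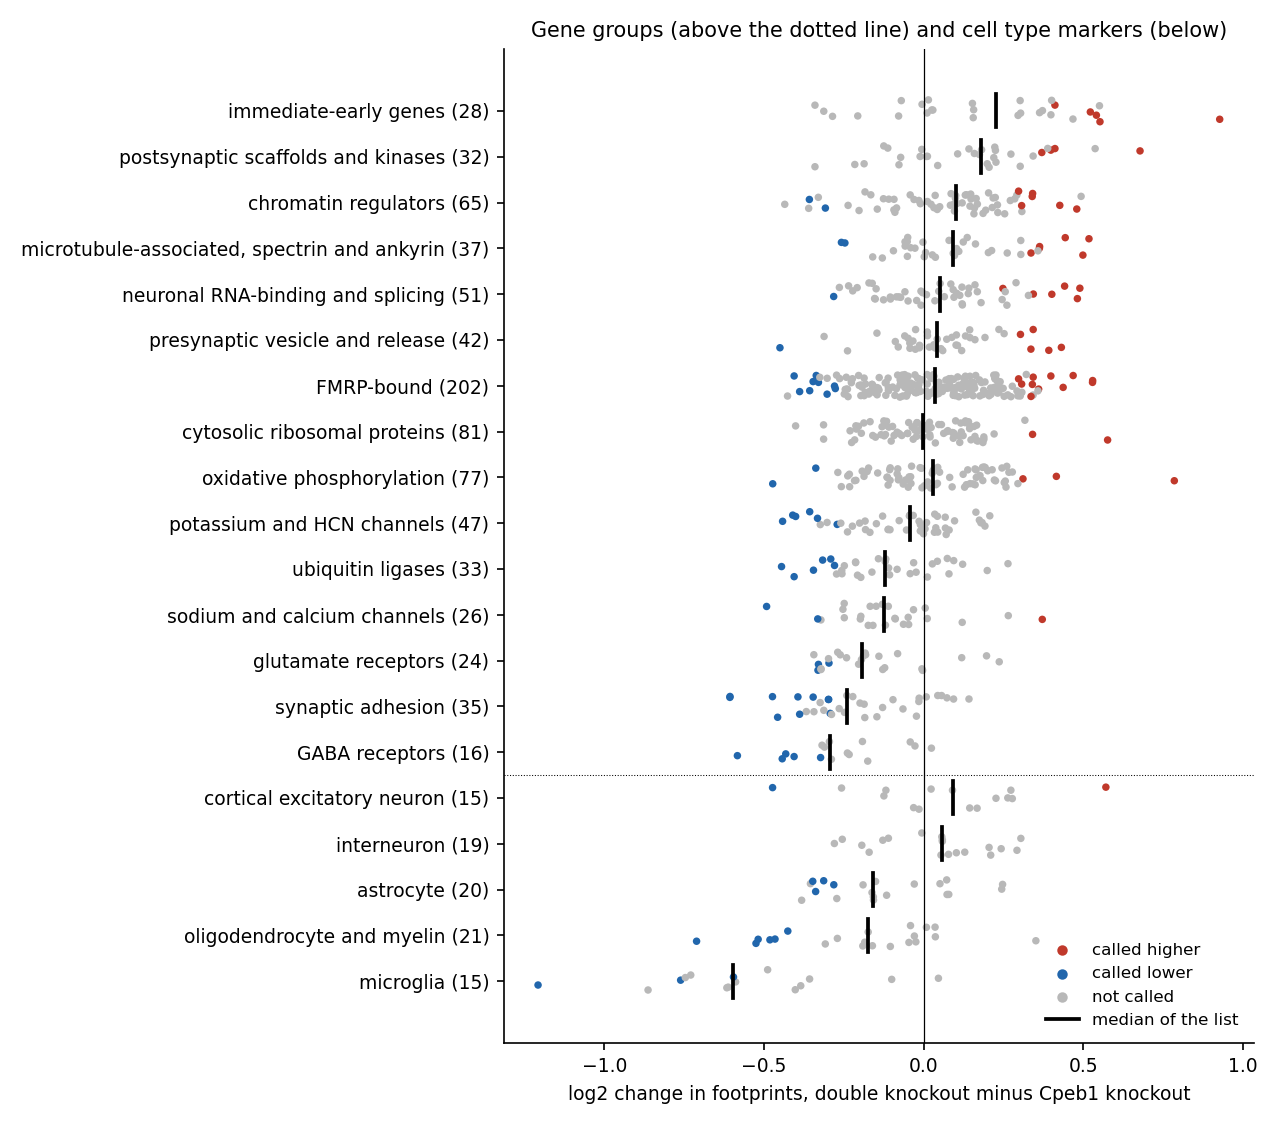
Change in footprints (log2, double knockout minus Cpeb1 knockout) of every tested member of 15 gene groups and 5 cell type marker lists, 1 point per gene, with the number tested in parentheses and a bar at the list's median. Vertical scatter within a list has no meaning; the medians run from 0.23 for immediate-early genes to -0.29 for GABA receptors and -0.60 for microglial markers.

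Markers of microglia, of myelinating oligodendrocytes and of astrocytes had medians below 0. None of the 15 microglial markers was among the genes with the most counts. Their median was -0.60, with 14 below 0 and 3 that fell (2 without the block), 20% called. That median was -0.86 in the first same-numbered pair and -0.13 in the second, and between -0.84 and -0.29 in the 12 other fits. Their summed level was 59.0 and 79.0 CPM in the double knockout, 103 and 105 CPM in the Cpeb1 knockout, and 87.4 to 123 CPM in the 4 other footprint libraries. P2ry12, the purinergic receptor of resting microglia, had 3.38 and 3.60 CPM in the double knockout and 7.77 and 8.40 CPM in the Cpeb1 knockout, a change of -1.21 ± 0.19 (edgeR adjusted p = 0.011). The lysosomal protease gene Ctss fell by 0.76 and was not called without the block. In RNA the microglial markers had a median of -0.34, with 3 of 15 above 0. Their summed RNA level was 92.9 and 111 CPM in the double knockout against 153 and 94.7 CPM in the Cpeb1 knockout, so the sums overlapped. In bulk cortex fewer cells of a type and less RNA per cell cannot be told apart.

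Of 21 oligodendrocyte and myelin markers 6 fell and none rose (3 without the block), 28.6% called, with a median of -0.17. Of the 21, 10 were among the genes with the most counts. Ugt8a, which makes the myelin lipid galactosylceramide, had 109 and 91.6 CPM in the double knockout and 180 and 150 CPM in the Cpeb1 knockout. Its change was -0.71 ± 0.10 (edgeR adjusted p = 0.0066). The enzymes Aspa (-0.52) and Enpp2 (-0.48) fell too, while Mbp had a change of 0.01. The summed level of the list was 4251 and 3867 CPM in the double knockout and 5264 and 4564 CPM in the Cpeb1 knockout. The same list had a median of -0.33 in the Fmr1 knockout against wild type, a comparison that shares no library with the first. Of 20 astrocyte markers 4 fell (none without the block), Clu (-0.35), Gja1 (-0.34), Slc1a3 (-0.31) and Atp1b2 (-0.28). That was 20% called, with a median of -0.16, and 10 of the 20 were among the genes with the most counts. Markers of oligodendrocyte precursors (8 tested) and of endothelial and mural cells (13) had medians of 0.12 and 0.01, with none called. No interneuron marker was called of 19 (5 with an unadjusted p under 0.05 by edgeR, and none called by DESeq2), and their median was 0.06. Cortical excitatory neuron markers (15 tested) had a median of 0.09, Neurod2 rose by 0.57 and Lamp5 fell by 0.47 (1 without the block, Lamp5). That was 13.3% called, and 6 of the 15 were among the genes with the most counts. The part of these shifts in the changes of GABA receptor, adhesion and channel genes was not tested.

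Among called genes averaging at least 50 counts, the largest changes outside Fmr1 included several at low levels. Stat4, a transcription factor of cytokine signalling, had 1.30 and 1.18 CPM in the double knockout and 3.55 and 3.64 CPM in the Cpeb1 knockout, a change of -1.53 ± 0.25 (edgeR adjusted p = 0.011). Rec8, a meiotic cohesin subunit, fell by 1.90 and was not called without the block or by DESeq2 (adjusted p = 0.066 and 0.26). Car12, a carbonic anhydrase, fell by 0.99, and Cpq, Zfp758, Rab42 and Pcbd1 by 0.90 to 0.98, these 4 not called without the block. Upward, Arid3a, a DNA-binding factor, had 2.96 and 4.65 CPM against 1.56 and 1.94 CPM (change 1.10 ± 0.25, edgeR adjusted p = 0.027, and 0.062 without the block). Rassf10, Cdkn1c, Wnt9a and Lmcd1 rose by 1.00, 0.97, 0.80 and 0.80 and were not called without the block either. Neil1, a DNA repair glycosylase, the transcription factor Cebpb and Tceal5 rose by 0.97, 0.88 and 0.81 and were called in both fits. Hist4h4 rose by 1.00 in footprints with an RNA change of -1.23. Histone H4 has many near-identical gene copies, so its value is uncertain. Among well covered genes, Pls3, an actin bundler on chromosome X, had 297 and 294 CPM in the double knockout and 506 and 432 CPM in the Cpeb1 knockout (change -0.66 ± 0.07, edgeR adjusted p = 0.0024). Pls3 stood at 340 and 312 CPM in the Fmr1 knockout and 443 CPM in both wild type libraries. Pla2g7, a secreted phospholipase, fell by 0.70 ± 0.10 (edgeR adjusted p = 0.0064).

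The calls were spread unevenly over chromosomes, a pattern chosen for description after its values were seen. Of all genes tested 3% rose and 2.61% fell. On chromosome 7, which carries Cpeb1, 62 of 1028 genes rose (6.03%) and 9 fell (0.875%), 17 and 1 without the block. Of its genes 61.0% had a change above 0. Chromosome 1 had 10 higher (1.22%) and 34 lower (4.14%) of 821, 2 and 10 without the block. Chromosome 3 had 13 (1.95%) and 33 (4.95%) of 667, 4 and 13 without the block. On chromosome X 10 rose (2.05%) and 19 fell (3.89%) of 488, 4 and 10 without the block. Only 35.2% of the genes on X lay above 0. The chromosome medians were small, from -0.10 on X to 0.08 on 7, and in each same-numbered pair chromosome 7 was above 0 (0.07 and 0.06) and X below (-0.08 and -0.11). The 20 tested genes nearest to Fmr1 had a median of -0.19, with 15 below 0. Slitrk2 and Slitrk4 were the 2 called among them, both lower. The same 20 genes had a median of 0.02 in the Fmr1 knockout against wild type. The share called hardly varied with coding length, but the directions did. Of the 2767 genes with the shortest coding sequences 6.18% were called, 113 higher and 58 lower. Of the 2755 with the longest 5.77% were called, 70 higher and 89 lower, against 5.6% of all genes.

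**Figure D4:**
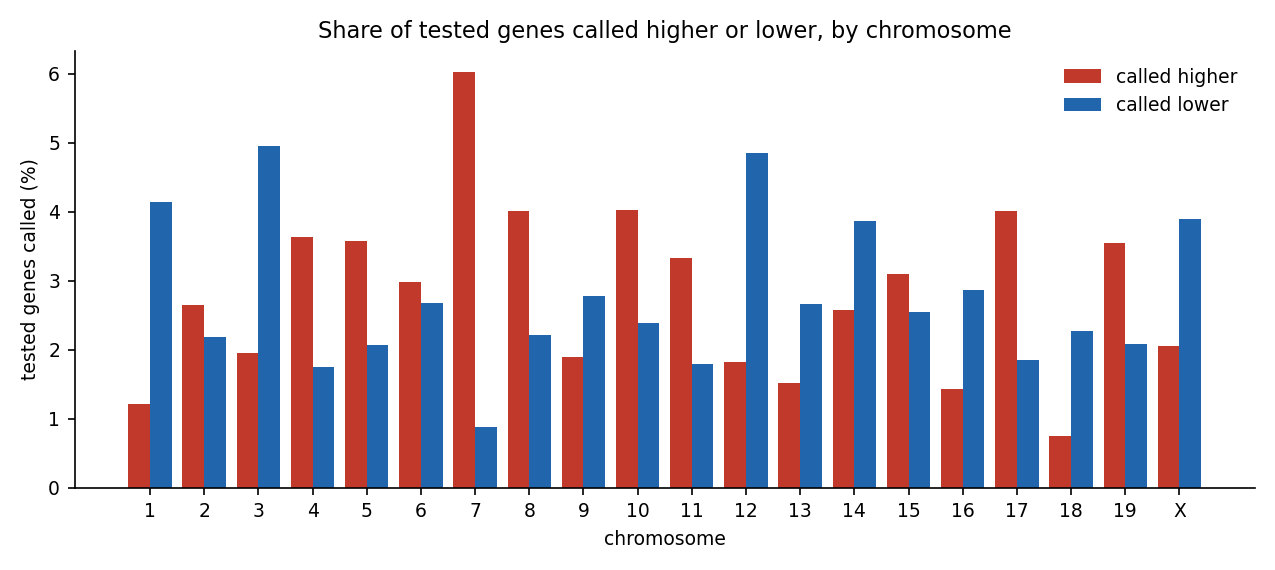
Share of tested genes (percent, from 0) called higher or lower in the double knockout against the Cpeb1 knockout, for each autosome and chromosome X. Chromosome 7 has 6.03% higher and 0.875% lower; chromosomes 1, 3, 9, 12, 13, 14, 16, 18 and X have more lower than higher.

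RNA of the same lysates moved in the same direction as footprints for most called genes, although single genes were not called there. In RNA-seq 1 of 13287 genes was called (0.00753%), Fmr1, at -2.11 ± 0.13, with 2550 at an unadjusted p under 0.05 by edgeR (19.2%) and 145 called by DESeq2. That count was 489 after correction for length. It was 463 without RNA-seq double knockout replicate 2, 371 without RNA-seq Cpeb1 knockout replicate 2, 9 without Cpeb1 knockout replicate 1 and 2 without double knockout replicate 1. Of the genes higher in footprints, 351 of 411 tested had an RNA change above 0, with a median of 0.25. Of those lower in footprints, 328 of 358 were below 0 in RNA, with a median of -0.30. Over both sets the sign was shared by 88.3%, against 66.1% of all 13027 genes measured in both assays. Called genes were selected for clear changes and leaned to high counts, so this gap is partly fixed by the call. Across the 13027 genes Spearman's rho of the changes was 0.42, a description over genes that share lysates and are not independent. Some lists had a median near 0 in footprints and not in RNA. Cytosolic ribosomal protein, oxidative phosphorylation and proteasome genes had RNA medians of -0.25, -0.25 and -0.17, with 3 of 81, 8 of 77 and 2 of 32 above 0. Other lists had medians of opposite sign. Sodium and calcium channel genes had -0.12 in footprints and 0.23 in RNA, with 19 of 26 above 0 in RNA. Potassium and HCN channel genes had -0.04 and 0.16 (30 of 47), and glutamate receptor genes -0.19 and 0.06 (14 of 24). GABA receptor genes were below 0 in both, at -0.29 and -0.18, and synaptic adhesion genes at -0.24 and -0.02. All 14 tested striatal markers had an RNA change above 0, with a median of 0.77. The summed RNA level of the striatal markers was 1941 and 1942 CPM in the double knockout and 1361 and 1061 CPM in the Cpeb1 knockout, against 1641 to 2177 CPM in the other RNA-seq libraries. In footprints the same sum was 1931 and 2111 CPM against 2016 and 1873 CPM. Their part in the RNA changes was not tested.

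The difference between footprint and RNA change, usually called translational efficiency, was called for 1 of 13027 genes (0.00768%), Fmr1, at -2.15 ± 0.20. By edgeR 1129 genes had an unadjusted p under 0.05, 8.67% of those tested, and the single call became 228 without RNA-seq double knockout replicate 2. Among the members described above, the difference was 0.86 ± 0.16 for Ier5 (edgeR adjusted p = 0.37), 1.01 ± 0.28 for Cox7c (0.43), -0.41 ± 0.15 for Gabra2 (0.50) and 0.01 ± 0.16 for Nrgn (0.99). A change in ribosome density apart from RNA was thus not detectable for these genes with 2 libraries a group.

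**Figure D5:**
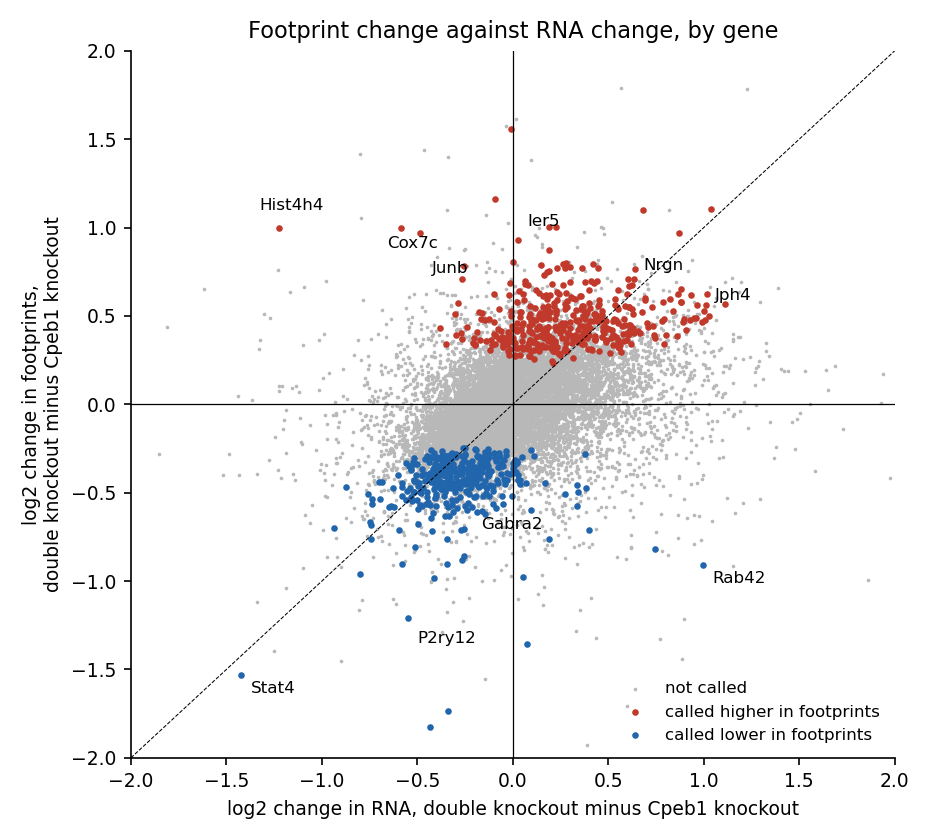
Change in footprints against change in RNA (both log2, double knockout minus Cpeb1 knockout), 1 point per gene tested in both; genes beyond 2 on either axis, Fmr1 among them, are not drawn, and the dashed line marks equal change. Most red and blue points (called in footprints) share the sign of the RNA change; Ier5 and Junb lie near 0 in RNA, and Hist4h4 has opposite signs.

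Loss of Fmr1 with Cpeb1 intact gave few calls. In the Fmr1 knockout against wild type 8 of 13774 genes were called (0.0581%), 4 in each direction (0.029%), and 701 had an unadjusted p under 0.05 by edgeR (5.09%). The 8 became 46 without wild type replicate 1, 38 without wild type replicate 2 and 5 without Fmr1 knockout replicate 2. Of the genes higher in the double knockout 289 of 413 were above 0 there, with a median of 0.06, and of those lower 199 of 359 were below 0, with a median of -0.01. Gabra2 had a change of -0.01, Ier5 of 0.21 and Nrgn of -0.14 in that comparison. The difference between both Fmr1 effects was called for 9 genes (0.0653%), 4 higher (0.029%) and 5 lower (0.0363%), among them Nrgn and Ctxn1. It was -0.57 for Gabra2 (edgeR adjusted p = 0.093), 0.72 for Ier5 (0.087) and -1.30 for P2ry12 (0.11), so an effect limited to Cpeb1-deficient cortex was not shown for these genes. The 9 became 428 without wild type replicate 2 and 28 without wild type replicate 1.

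The called genes were also placed beside all 8 footprint libraries. Both double knockout libraries lay beyond all 6 others in 377 of the 413 higher and 318 of the 359 lower genes. Both Cpeb1 knockout libraries lay beyond the 6 others in 100 and 94. The median against wild type was 0.37 and -0.32 in the double knockout, and -0.08 and 0.09 in the Cpeb1 knockout. These genes were selected by the same libraries, so such counts and medians are largely fixed in advance. They are a description, with no share over all genes tested beside them.

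In the authors' deposited table of this footprint comparison 1173 of 8699 genes with an adjusted p were under 0.05 (13.5%), 644 higher and 529 lower. Of these, 687 were called here as well, 58.6% of theirs and 89.0% of the 772, and all 1173 had the same direction here. Both results come from the libraries of this series, so the overlap and the shared direction are no independent check. The authors' deposited RNA table had 459 of 7774 under 0.05 (5.9%), 341 higher and 118 lower. The authors' deposited table of translational efficiency, made with Xtail, had 97 of 14516 (0.668%), 23 higher and 74 lower, of which 78 changed more in RNA than in footprints.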

How the data were processed

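The members, gene lists and naming rule were chosen with earlier results of these data known. Cortex lysate was split for footprints (monosomes from a sucrose gradient, after lysis with cycloheximide and harringtonine) and for RNA-seq, per the labels' protocols. Harringtonine holds initiating ribosomes at start codons, so footprints there can weigh in a gene's count. The submitters' processing notes list cutadapt, Bowtie2, TopHat2, RSEM, DESeq2 and mm10, with no versions. The deposited values analysed were RSEM expected counts per gene, not scaled to depth per the file headers. The features appear to be coding sequences, since 99.6% of single-transcript genes had a length divisible by 3. Authors' log2 changes, with p-values adjusted and unadjusted, come from the deposited comparison tables.

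Expected counts were rounded. Tests used edgeR 4.0.16 (R 4.3.3): TMM scaling, filterByExpr (minimum count 10), quasi-likelihood fits over all 8 libraries of an assay with the replicate number as a block. The block follows an earlier analysis of the series, and no label states it. Translational efficiency was the interaction of assay and genotype over 16 libraries. Scripts were tested on simulated counts.

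Named genes were Fmr1, Cpeb1 and relatives. To these came called genes moving the same way in both pairs with at least 50 mean counts and no provisional symbol: the 10 largest and 5 smallest p each way. Up to 4 called members of each of 40 lists and the 10 tested genes on each side of Fmr1 followed. Uncalled members with values, Fos, Egr1, Npas4, Gabbr1, Gabbr2, Gphn, Mbp and Gh, and the called Gabrg1, were picked after their values were seen. Positions come from RefSeq's table for GRCm38.p6, where 20378 of 20436 gene names matched. Promoter windows of that source covered under 80% of tested genes, so no check of base composition was made and no sequence is shown. Alternatives were no block, RLE factors, DESeq2 1.42.0, other count filters, a length correction, fewer genotypes and each library left out. Some genes that the naming rule takes are not reported here.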

Additional observations from a re-analysis of the deposited data

Results flagged for a closer look

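For 9 genes the footprint change on Fmr1 loss differed with and without Cpeb1 loss, by edgeR's quasi-likelihood test of the difference itself with adjusted p under 0.05. The difference was 0.82 for Nrgn (adjusted p = 0.031), higher in the double knockout, and 0.82 for Ctxn1 (0.039), with changes of -0.14 and -0.11 where Cpeb1 was intact. It was -0.75 for Rdx (0.031), a linker of actin to the membrane, which fell by 0.54 in the double knockout and had a change of 0.20 where Cpeb1 was intact. For Kidins220, a scaffold of neurotrophin receptors, it was -0.66 (0.046), with changes of -0.35 and 0.31. Hist4h4, uncertain because of its near-identical copies, had 1.42. For Pla2g4e, a phospholipase gene, the difference was -2.38, with 48.9 to 61.3 CPM in 6 libraries and 10.7 and 9.91 CPM in wild type. Adi1, an enzyme of methionine salvage, had 1.44, and its wild type libraries held 46.8 and 56.8 CPM. Gm5150 had -6.96 and Rec8 -6.18, both near 0 CPM in wild type (0.04 and 0, and 0.36 and 0.05), so these fitted values depend on the prior count and are no bounds. Rdx, Kidins220, Pla2g4e, Adi1 and Gm5150 were named because of this test.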

How the results depend on the processing

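The 772 called genes kept their direction in every other fit of the footprint comparison, except 1 gene without double knockout replicate 1. With at least 10 counts in every library 5 of them were not tested. Kept directions are largely fixed by the selection, since every fit reuses these libraries. Fits with RLE factors, DESeq2, either count filter or the length correction stayed within 1.5 times of 772, at 671 to 1000. Without the replicate block 207 were called (111 higher, 96 lower), and with only the 2 genotypes 1701 (976 and 725). Only the 2 genotypes without the block, a fit chosen after seeing the data, gave 140 (80 and 60). Leaving out a replicate gave 5 to 81 (3 to 59 higher, 2 to 22 lower), with the lone library assumed to vary like the other groups. The cause of these differences was not tested beyond their construction from fewer samples.

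The pairing by replicate number rests on the number alone. Deviations of same-numbered footprint libraries correlated at 0.18 between the double and the Cpeb1 knockout, and at -0.110 to 0.445 over all pairs of genotypes. Without the block 62 of the 117 named genes with fits lost their call. Fxr1, not called, had a change of 0.01, and -0.0553 to 0.0841 without a replicate. It was below 0 without double knockout replicate 2 (-0.00955) and without Cpeb1 knockout replicate 2 (-0.0553).

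RNA calls, 1 with the chosen settings, were 145 with DESeq2, 206 with no filter, 489 with the length correction, 132 with only the 2 genotypes and 2 to 463 without a replicate. Translational efficiency, 1 call, gave 2 without the block, 3 with DESeq2, 3 with no filter, 2 with the length correction, and 1 to 228 without a replicate, the highest without RNA-seq double knockout replicate 2. The difference of Fmr1 effects, 9 calls, gave 5 without the block, 50 with DESeq2, 33 with no filter, 5 with at least 10 counts in every library, and 6 to 428 without a replicate. The Fmr1 knockout against wild type, 8 calls, gave 15 with DESeq2, 16 with no filter, 43 with only the 2 genotypes, and 5 to 46 without a replicate. RNA-seq libraries of these 2 genotypes held 6148244 to 8753866 counts.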

Other observations

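Pituitary hormone messages were present in single libraries. Gh had 486 and Prl 62 counts in footprint double knockout replicate 1, 13 and 5 in footprint Cpeb1 knockout replicate 1, and 30 and 2 in RNA-seq Cpeb1 knockout replicate 2. All other libraries had 0 or 1. Of 10 choroid plexus and ependyma markers tested, 1 fell (none without the block), Dnah6 at -0.76, and the list's sum was 85.1 and 66.6 CPM in the double knockout and 80.3 and 178 CPM in the Cpeb1 knockout. Circadian output genes Dbp and Nr1d1 rose by 0.58 and 0.48, 2 of 19 clock genes (10.5%), and neither was called without the block. Of the 19, 7 were among the genes with the most counts. DESeq2 called 2 of the 19, which need not be the same genes. The chaperones Hsp90b1 and Cct4 fell by 0.43 and 0.30, 2 of 38 (5.26%), and neither was called without the block. Of the 38, 31 were among the genes with the most counts.

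No gene was called by edgeR or DESeq2 among 39 collagen and matrix genes, 8 oligodendrocyte precursor, 13 endothelial and mural, 3 blood, 12 hippocampal and 12 thalamic or hypothalamic markers. An unadjusted p under 0.05 by edgeR was reached by 7, 4, 1, 0, 0 and 2 of them.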
